A study of Mus musculus with 39 samples.

Results

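The genes described here are 40 markers of proliferation and mitosis, chosen by symbol: the enzymes and factors that copy DNA, the cyclins and kinase that drive the S, G2 and M phases, and the proteins that pull chromosomes apart. Of the 40, 39 were among the 16979 genes measured in 32 mouse libraries of a labelling experiment, and 38 were among the 13938 genes measured in 7 libraries of a fixation experiment. Plk1 was not analysed here in either experiment and Gins2 was not analysed here in the fixation experiment. The study sequenced polyadenylated RNA of hindlimb muscle and of its stem cells, also called satellite cells, in 39 libraries of 10 groups, and set RNA made or fixed inside the animal beside RNA of cells taken out of it.

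The fixation experiment had 2 groups of muscle stem cells sorted by flow cytometry. In the fixed group (n = 4, replicates 1, 3, 4 and 5) the mice had been perfused with 1% paraformaldehyde ahead of cell sorting, and in the unfixed group (n = 3) they had not. RNA of both was extracted with a kit made for fixed tissue, and 1 ng went into each library. The genotype of these mice is not given in the labels. The 32 other libraries fell into 8 groups of 4, made from 500 pg of RNA each. Mice labelled in the animal were Pax7CreER/+; UPRT HA/+: a Cre recombinase driven from Pax7, the stem cell factor of muscle, switches on UPRT, with which a cell can put 4-thiouracil (4tU) into the RNA it makes. Labelled RNA was pulled down from the RNA of whole hindlimb muscle after 4tU every 12 h for 4 d or 1 d, or 6 h after it was given, with total RNA of hindlimb muscle as the input. For the isolated cells, 4tU was added during an isolation of about 6 h and labelled RNA was pulled down from the purified cells, with total RNA of the purified cells beside it. In 2 further groups, cells were isolated with alpha-amanitin, which blocks RNA polymerase II, or with DMSO as its control. The genotype of the mice behind the isolated cells is not given in the labels. Total RNA, DMSO and alpha-amanitin libraries are labelled as free of 4tU.

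Most stem cells of resting adult muscle are quiescent: they sit outside the cell cycle and re-enter it after injury or culture. In a cycling cell, E2F factors drive the replication genes around the entry into S phase. The MuvB core complex, joined by B-Myb and FoxM1, then drives the mitotic genes. In quiescent cells the MuvB core instead sits with the pocket protein p130 and a repressive E2F in the DREAM complex, which holds both sets down. E2F-driven genes are often bound through letters of the TTTGGCGC kind in their promoters, and mitotic genes through the letters TTTGAA, the cell cycle genes homology region (CHR), next to CCAAT boxes.

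Recovered reads per library numbered 22704011 to 25045404 in the fixation experiment and 2321903 to 102619074 in the labelling experiment, where RNA labelled during isolation was shallowest (2321903 to 7742378). No member was at 0 in any library. The summed level of 8 satellite cell markers (Pax7, Myf5, Calcr, Chrdl2, Sdc4, Cdh15, Vcam1, Itga7) ran from 525 to 2833 RPKM in the 6 groups from isolated cells and from 58.6 to 160 RPKM in the 4 groups from whole muscle. The summed level of 6 muscle fibre genes (such as Acta1 and Ckm) ran from 46.9 to 3376 RPKM in the fixation libraries, 58.1 to 246 RPKM in total RNA of isolated cells and in DMSO cells, and 116083 to 122143 RPKM in whole muscle. RNA pulled down from muscle is labelled as of muscle stem cells, and its fibre markers summed to 63705 to 69289 RPKM after 6 h and 120989 to 130724 RPKM after 1 d. In cells isolated with alpha-amanitin that sum was 2483, 10397, 11404 and 12824 RPKM in replicates 1 to 4. Replicate 1 of the alpha-amanitin group stood apart, with a scaling factor applied by the authors of 1.5428 against 0.9173 to 0.9795 in the other 3 libraries. It also held the least fibre RNA of its group, so runs without it keep the 3 libraries with the most. For that group, the counts of calls over all members and each pathway list, and the test results of the members and pathway genes named, are given with and without it. Of 39 members found in the GENCODE annotation, 12 have exons that overlap those of another gene, 11 of them on the opposite strand, such as Ube2c with the fast troponin gene Tnnc2, Cdc20 with Elovl1, Ccna2 with Exosc9 and Mcm7 with Cops6. The sources used here do not say whether counting used strand, so reads of these pairs cannot be told apart. In bulk libraries, fewer cells of a type and less RNA per cell cannot be told apart either.

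Promoter sequences from RefSeq (GRCm38.p6, 250 bases before to 50 after the start) were found for 33 of the 40 genes, in 36 promoters. The letters TTTGAA, on either strand, stood in promoters of 15 of the 33 genes (45.5%), against 17.9% of all 32851 promoters. CCAAT, on either strand, stood in 26 (78.8%), against 37.4% of all. Any of TTTGGCGC, TTTCCCGC, TTTGCCGC and TTTCGCGC, on either strand, stood in 8 (24.2%), against 2.26% of all. These motifs can overlap each other, and a match is only a string of letters. Below are the 250 bases before the start, 5′ to 3′ along the gene's strand, of Mcm2, Ccnb2 and Cdc20 as the members with TTTGAA at the highest level in unfixed cells, of Mcm7, Mcm6 and Mcm5 likewise with E2F-type letters, and of Cdk1, which was added after its values were seen because it has both kinds and the lowest adjusted p with fixation. Members whose letters lie after the start are not shown. Capitals mark TTTGAA or its reverse in the first 3, the E2F-type letters in the next 3, and both kinds in Cdk1, where TTTGAA begins at -71 and -15 and TTTCGCGC at -131 relative to the start.
Mcm2 (chr6:88898781-88899030, minus strand): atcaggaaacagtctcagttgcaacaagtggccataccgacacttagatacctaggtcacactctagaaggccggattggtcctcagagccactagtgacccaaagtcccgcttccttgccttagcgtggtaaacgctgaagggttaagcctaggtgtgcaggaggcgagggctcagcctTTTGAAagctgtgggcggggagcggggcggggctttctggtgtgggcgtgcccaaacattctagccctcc
Ccnb2 (chr9:70421555-70421804, minus strand): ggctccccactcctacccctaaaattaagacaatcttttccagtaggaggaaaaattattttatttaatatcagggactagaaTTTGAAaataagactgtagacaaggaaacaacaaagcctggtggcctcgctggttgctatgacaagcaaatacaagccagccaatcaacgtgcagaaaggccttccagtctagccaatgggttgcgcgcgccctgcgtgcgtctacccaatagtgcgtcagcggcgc
Cdc20 (chr4:118437344-118437593, minus strand): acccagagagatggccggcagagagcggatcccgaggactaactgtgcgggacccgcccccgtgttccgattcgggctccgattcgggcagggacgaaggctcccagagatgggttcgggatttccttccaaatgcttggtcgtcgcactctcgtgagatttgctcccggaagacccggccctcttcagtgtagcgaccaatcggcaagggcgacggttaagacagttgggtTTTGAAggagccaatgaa
Mcm7 (chr5:138171884-138172133, minus strand): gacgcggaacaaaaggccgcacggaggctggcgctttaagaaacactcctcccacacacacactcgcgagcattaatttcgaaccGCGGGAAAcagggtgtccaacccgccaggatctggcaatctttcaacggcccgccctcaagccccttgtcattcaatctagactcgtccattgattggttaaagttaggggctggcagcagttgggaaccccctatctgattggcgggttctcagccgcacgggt
Mcm6 (chr1:128359706-128359955, minus strand): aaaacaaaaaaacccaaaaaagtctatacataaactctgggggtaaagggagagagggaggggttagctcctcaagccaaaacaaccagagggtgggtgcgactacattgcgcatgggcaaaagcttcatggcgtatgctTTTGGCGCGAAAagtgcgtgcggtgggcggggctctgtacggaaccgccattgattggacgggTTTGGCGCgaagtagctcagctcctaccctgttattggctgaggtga
Mcm5 (chr8:75109259-75109508, plus strand): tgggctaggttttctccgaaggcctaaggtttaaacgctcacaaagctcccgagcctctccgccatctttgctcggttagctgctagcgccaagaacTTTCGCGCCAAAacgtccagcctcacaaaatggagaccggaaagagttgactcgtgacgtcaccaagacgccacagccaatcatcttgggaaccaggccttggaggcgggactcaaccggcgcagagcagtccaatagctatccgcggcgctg
Cdk1 (chr10:69352913-69353162, minus strand): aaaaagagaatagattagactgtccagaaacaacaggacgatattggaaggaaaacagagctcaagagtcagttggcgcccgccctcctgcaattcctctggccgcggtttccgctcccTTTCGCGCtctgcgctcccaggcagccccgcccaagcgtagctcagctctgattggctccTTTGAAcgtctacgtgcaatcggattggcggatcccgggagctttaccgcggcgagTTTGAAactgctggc

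Fixed cells held more RNA of most of these genes than unfixed cells. Of 38 members, 18 rose and 0 fell at a limma adjusted p under 0.05, where 10.9% of all genes tested rose and 9.87% fell; at an unadjusted p under 0.05 there were 27, and 34.3% of all genes. The median difference of the members was 1.18 on the log2 scale, against 0.07 over all genes. Of the 38, 35 were above 0 and 24 of them by at least 2-fold. The 2 groups did not overlap for 22 members that were higher in every fixed library and for 1 that was lower, where 18.5% and 15.3% of all genes did so. The called members were spread over every role, and the 3 centromere proteins, 3 of 5 mitotic kinase, checkpoint and passenger genes, 2 of 2 chromatin genes and 3 of 6 cyclin and kinase genes were among them, beside 3 of 11 replication genes and 2 of 4 genes of nucleotide supply. The count of 18 was 4 without unfixed replicate 1, 9 without unfixed replicate 2, 4 without unfixed replicate 3 and 8 without fixed replicate 3. In those runs 7.48%, 6.88%, 5.57% and 8.89% of all genes were called higher. With limma-voom the count was 12 (9.44% of all genes), and with a replicate block it was 7 (5.27%). Cdk1, Top2a and Birc5 were the 3 members called under every alternative run.

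Replication licensing and the fork came first among the roles, and here the members went in different ways. Mcm2 to Mcm7 form the ring-shaped helicase that unwinds DNA ahead of the fork. Mcm2 was at 4.37, 3.99 and 4.51 RPKM in unfixed replicates 1 to 3 and at 6.18, 13.5, 13.2 and 13.2 RPKM in fixed replicates 1, 3, 4 and 5. The groups did not overlap, and Mcm2 rose 2.40-fold (log2 difference 1.26, SE 0.32, adjusted p = 0.021). Mcm5 was at 4.54, 6.24 and 5.13 RPKM in unfixed cells and at 7.92, 11.8, 10.4 and 16.7 RPKM in fixed cells. It rose 2.05-fold (adjusted p = 0.0356), again with no overlap. Both calls were lost without unfixed replicate 1, 2 or 3 and without fixed replicate 3 or 5, with adjusted p up to 0.0761 for Mcm2 and 0.129 for Mcm5.

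Mcm6 was at 7.85, 7.77 and 8.42 RPKM in unfixed cells and at 12.5, 25.1, 8.89 and 32.2 RPKM in fixed cells, which did not overlap but spread widely among themselves (2.10-fold higher, adjusted p = 0.096). Mcm7 was at 11.5, 8.93 and 10.2 RPKM in unfixed cells and at 16, 21.3, 9.9 and 28.1 RPKM in fixed cells, with fixed replicate 4 inside the unfixed range (adjusted p = 0.143). Cops6, which overlaps Mcm7, was at 29 RPKM in unfixed and 68.8 RPKM in fixed cells. Mcm4 went the other way. It was at 21.3, 16.3 and 23.2 RPKM in unfixed cells and at 5.29, 10.3, 12.0 and 13.0 RPKM in fixed cells, every one below the unfixed libraries. The difference was 2.03-fold (log2 difference -1.02, SE 0.32) at an adjusted p of 0.0506, and Mcm4 was called lower under 5 of the alternatives that kept every library. Mcm3 was at 2.84 to 14.5 RPKM in fixed cells and 4.01 to 11.5 RPKM in unfixed cells, with no call (adjusted p = 0.781).

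Pcna, the sliding clamp that holds the polymerase on DNA, was the member at the highest mean level in unfixed cells. It was at 28.3, 32.2 and 32.3 RPKM in unfixed replicates 1 to 3 and at 11, 21.7, 16.2 and 32.5 RPKM in fixed replicates 1, 3, 4 and 5. Fixed replicate 5 lay above every unfixed library and the other 3 lay below them, and no difference was called (mean 20.4 ± 9.21 against 30.9 ± 2.31 RPKM, SD, n = 4 and 3; adjusted p = 0.17). Uhrf1, which carries DNA methylation over to the new strand, rose 3.5-fold, from 2.97 ± 1.56 to 11.7 ± 5.36 RPKM (adjusted p = 0.0232). Its lowest fixed library, at 5.13 RPKM, was above its highest unfixed one, at 4.33 RPKM. The call was lost without unfixed replicate 1 or 3 or fixed replicate 3 or 5 (adjusted p up to 0.0887). The licensing factors Cdc6 and Cdt1 and the helicase partner Cdc45 were 1.53-fold, 1.40-fold and 1.69-fold higher with no call (adjusted p = 0.252, 0.301 and 0.198).

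Of the genes of nucleotide supply, Tyms and Tk1, which make thymidine nucleotides, rose and the ribonucleotide reductase genes Rrm1 and Rrm2 were not called. Tyms was at 2.88, 3.28 and 2.81 RPKM in unfixed cells and at 5.56, 8.33, 8.34 and 9.88 RPKM in fixed cells (2.40-fold, adjusted p = 0.0132). Tk1 was at 1.07 to 1.5 RPKM in unfixed cells and at 2.26 to 12.0 RPKM in fixed cells (3.05-fold, adjusted p = 0.0398). Neither overlapped. Tyms lost its call without unfixed replicate 1 or 3 (adjusted p up to 0.07), and Tk1 without unfixed replicate 1, 2 or 3 or fixed replicate 3 or 5 (adjusted p up to 0.141). Rrm1 was at 10.7, 16.8 and 15.1 RPKM in unfixed cells and at 3.76, 9.34, 8.27 and 13.5 RPKM in fixed cells, lower in mean with overlap (adjusted p = 0.198). Rrm2, the subunit whose level follows S phase, was at 12.3, 18.2 and 14.5 RPKM in unfixed cells and at 7.09, 14.3, 47.8 and 10.6 RPKM in fixed cells. Fixed replicate 4 alone was above the unfixed range, and without it the log2 difference turned from 0.04 to -0.51.

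Cdk1, the kinase that brings cells into mitosis (mm10 chr10:69336635-69352938, minus strand), gave the lowest adjusted p of all members. It was at 1.82, 1.82 and 1.83 RPKM in the 3 unfixed libraries and at 6.31, 13.8, 13.8 and 12.1 RPKM in fixed replicates 1, 3, 4 and 5. The unfixed libraries were nearly equal and every fixed library was far above them, so Cdk1 rose 4.95-fold (log2 difference 2.31, SE 0.33, adjusted p = 0.0012), and leaving out single libraries gave adjusted p of 0.000434 to 0.00916. Its partner cyclins followed in part. Ccna2, cyclin A of S and G2 phase, was at 0.998, 1.61 and 1.34 RPKM in unfixed cells and at 3.64, 3.53, 13.0 and 6.70 RPKM in fixed cells (3.53-fold, adjusted p = 0.0188). Ccnb1, a mitotic cyclin B, was at 0.341 to 0.690 RPKM in unfixed cells and at 1.59 to 1.80 RPKM in fixed cells, the tightest of the fixed values (2.08-fold, adjusted p = 0.0288). Ccnb2, the other cyclin B, was at 2.54, 4.15 and 4.78 RPKM in unfixed cells and at 3.26, 22.4, 50.8 and 9.39 RPKM in fixed cells. Fixed replicate 1 lay within the unfixed range and the other 3 above it, and the difference of 3.44-fold was not called (adjusted p = 0.119). Ccna2 lost its call without unfixed replicate 1 or 3 (adjusted p up to 0.0712), and Ccnb1 without unfixed replicate 1, 2 or 3 or fixed replicate 3 or 5 (adjusted p up to 0.126). The S-phase cyclins Ccne1 and Ccne2 were not called (adjusted p = 0.397 and 0.27). Ccne1 was at 0.541 RPKM in fixed replicate 1, below every unfixed library, and at 7.07 to 11.5 RPKM in the other fixed libraries.

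The mitotic kinases, the spindle checkpoint genes and survivin did not overlap between fixed and unfixed cells for any of the 5 measured, and 3 rose. Of all genes, 18.5% were higher without overlap and 10.9% rose. Birc5, or survivin, works with Aurora B in the chromosomal passenger complex at centromeres. It was at 1.10, 1.98 and 2.01 RPKM in unfixed cells and at 5.02, 10.6, 20.3 and 8.45 RPKM in fixed cells (4.80-fold; log2 difference 2.26, SE 0.44, adjusted p = 0.00594). Aurkb itself was at 0.793, 1.57 and 0.898 RPKM in unfixed cells and at 2.92, 4.66, 15.0 and 6.55 RPKM in fixed cells (4.27-fold, adjusted p = 0.015). Bub1, a kinase of the spindle checkpoint, rose 2.84-fold (adjusted p = 0.0356). Its partner Bub1b, which delays anaphase, and Aurka, the kinase of the spindle poles, were 2.66-fold and 1.90-fold higher without a call (adjusted p = 0.0545 and 0.0774). Bub1 lost its call without unfixed replicate 1, 2 or 3 or fixed replicate 1 or 3 (adjusted p up to 0.114), and Aurkb without unfixed replicate 1 or 3 (adjusted p up to 0.0659).

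All 3 genes of the centromere and kinetochore rose, where 10.9% of all genes did. Cenpa, the histone H3 variant that marks centromeres, was at 1.49, 2.93 and 1.90 RPKM in unfixed cells and at 3.35, 9.73, 32 and 12.8 RPKM in fixed cells (4.5-fold, adjusted p = 0.0312). Cenpf, a large kinetochore protein of G2 and M phase, was at 0.328, 0.859 and 0.664 RPKM in unfixed cells and at 1.22, 8.72, 9.52 and 3.74 RPKM in fixed cells (4.65-fold, adjusted p = 0.0249). Cenpe, the kinetochore motor, rose 4.32-fold (adjusted p = 0.0457). For all 3, fixed replicate 1 was the lowest fixed library and still above every unfixed one. Without unfixed replicate 1, 2 or 3, or without fixed replicate 3, each of the 3 calls was lost (adjusted p up to 0.102 for Cenpa, 0.0906 for Cenpf and 0.155 for Cenpe). Cenpa also lost its call without fixed replicate 5, and Cenpe without fixed replicate 4, with a pseudocount of 1 and with median-of-ratios factors.

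The spindle and midzone genes gave 1 call in 5, where 10.9% of all genes rose. Nusap1, which bundles spindle microtubules, was at 0.663 to 1.52 RPKM in unfixed cells and at 3.28 to 10.9 RPKM in fixed cells (3.67-fold, adjusted p = 0.0124), and its call was lost without unfixed replicate 2 (adjusted p = 0.0578). Kif11, the motor that separates the spindle poles, and Tpx2, which activates Aurora A on the spindle, were 2.13-fold and 2.11-fold higher with no call (adjusted p = 0.132 and 0.126). Prc1 and Kif20a, of the midzone that forms between the parting chromosomes, were 1.36-fold and 1.23-fold higher with no call (adjusted p = 0.439 and 0.578). The anaphase-promoting complex marks cyclin B for destruction, with Ube2c as its ubiquitin-conjugating enzyme and Cdc20 as its activator. Ube2c was at 0.553, 1.19 and 0.695 RPKM in unfixed cells and at 3.32, 3.30, 19.8 and 7.12 RPKM in fixed cells, the largest fold of all members (5.36-fold, adjusted p = 0.0148). Tnnc2, which overlaps Ube2c, was at 0.386 to 2.02 RPKM in unfixed and at 0.0543 to 1.49 RPKM in fixed cells. Cdc20 was at 1.39, 4.77 and 2.29 RPKM in unfixed cells and at 4.81, 4.15, 44.6 and 7.26 RPKM in fixed cells, with fixed replicate 3 inside the unfixed range and fixed replicate 4 far above the rest (adjusted p = 0.141). Elovl1, which overlaps Cdc20, was at a mean of 32.7 RPKM in unfixed and 18.5 RPKM in fixed cells. The Ube2c call was lost without unfixed replicate 1 and without unfixed replicate 3 (adjusted p up to 0.0608).

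Mki67, the source of the Ki-67 antigen that coats mitotic chromosomes, was at 0.918, 4.4 and 1.85 RPKM in unfixed cells and at 4.5, 16.1, 22.5 and 11.3 RPKM in fixed cells. The lowest fixed library was just above the highest unfixed one, and Mki67 rose 4.83-fold (log2 difference 2.27, SE 0.57, adjusted p = 0.0188). Its call was lost without unfixed replicate 1, unfixed replicate 3 or fixed replicate 3 (adjusted p up to 0.0752). Top2a, the topoisomerase that untangles sister chromosomes (mm10 chr11:98992943-99024189, minus strand), was at 1.35, 2.64 and 1.83 RPKM in unfixed cells and at 4.39, 10.8, 18.4 and 10.1 RPKM in fixed cells. It rose 4.31-fold (log2 difference 2.11, SE 0.45, adjusted p = 0.00885), and leaving out single libraries gave adjusted p of 0.00161 to 0.0407.

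**Figure D1:**
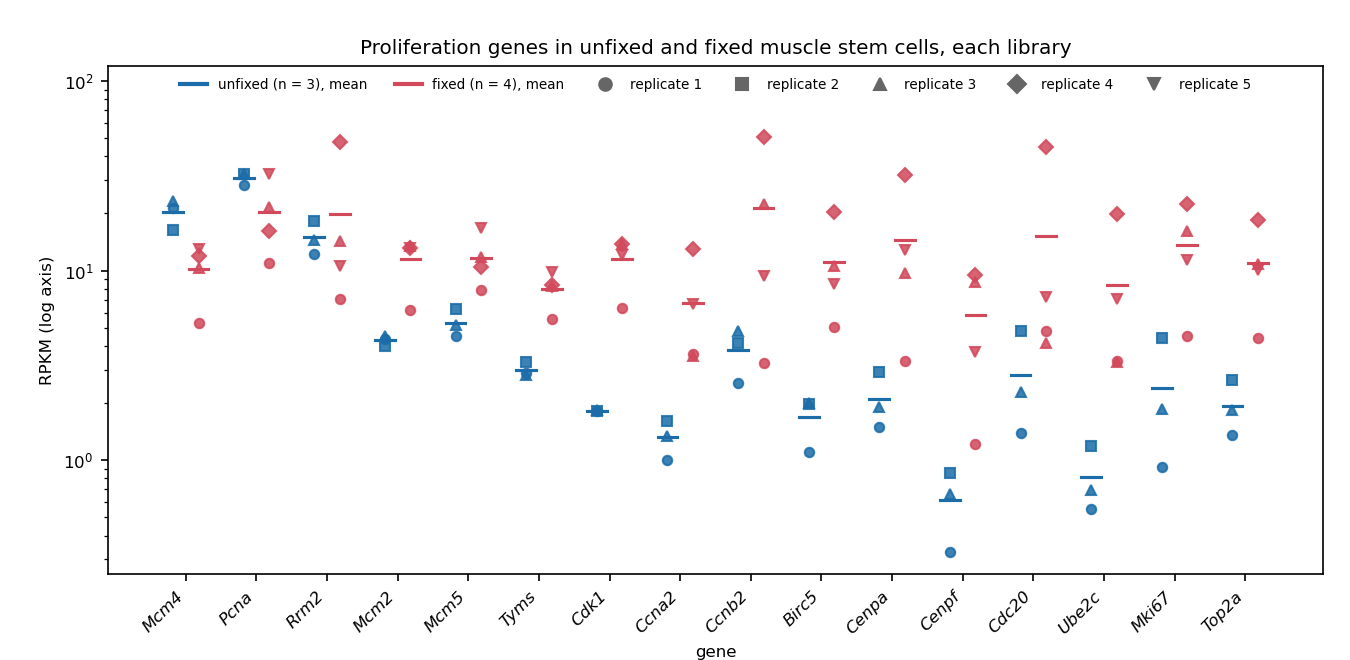
RPKM (vertical log axis) of 16 of the genes in each library of unfixed cells (blue, n = 3) and fixed cells (red, n = 4), with marker shapes for the replicate numbers and lines for the group means. Cdk1 sits at 1.82 to 1.83 RPKM in unfixed and 6.31 to 13.8 RPKM in fixed cells, while Pcna overlaps and Mcm4 is lower in every fixed library.

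**Figure D2:**
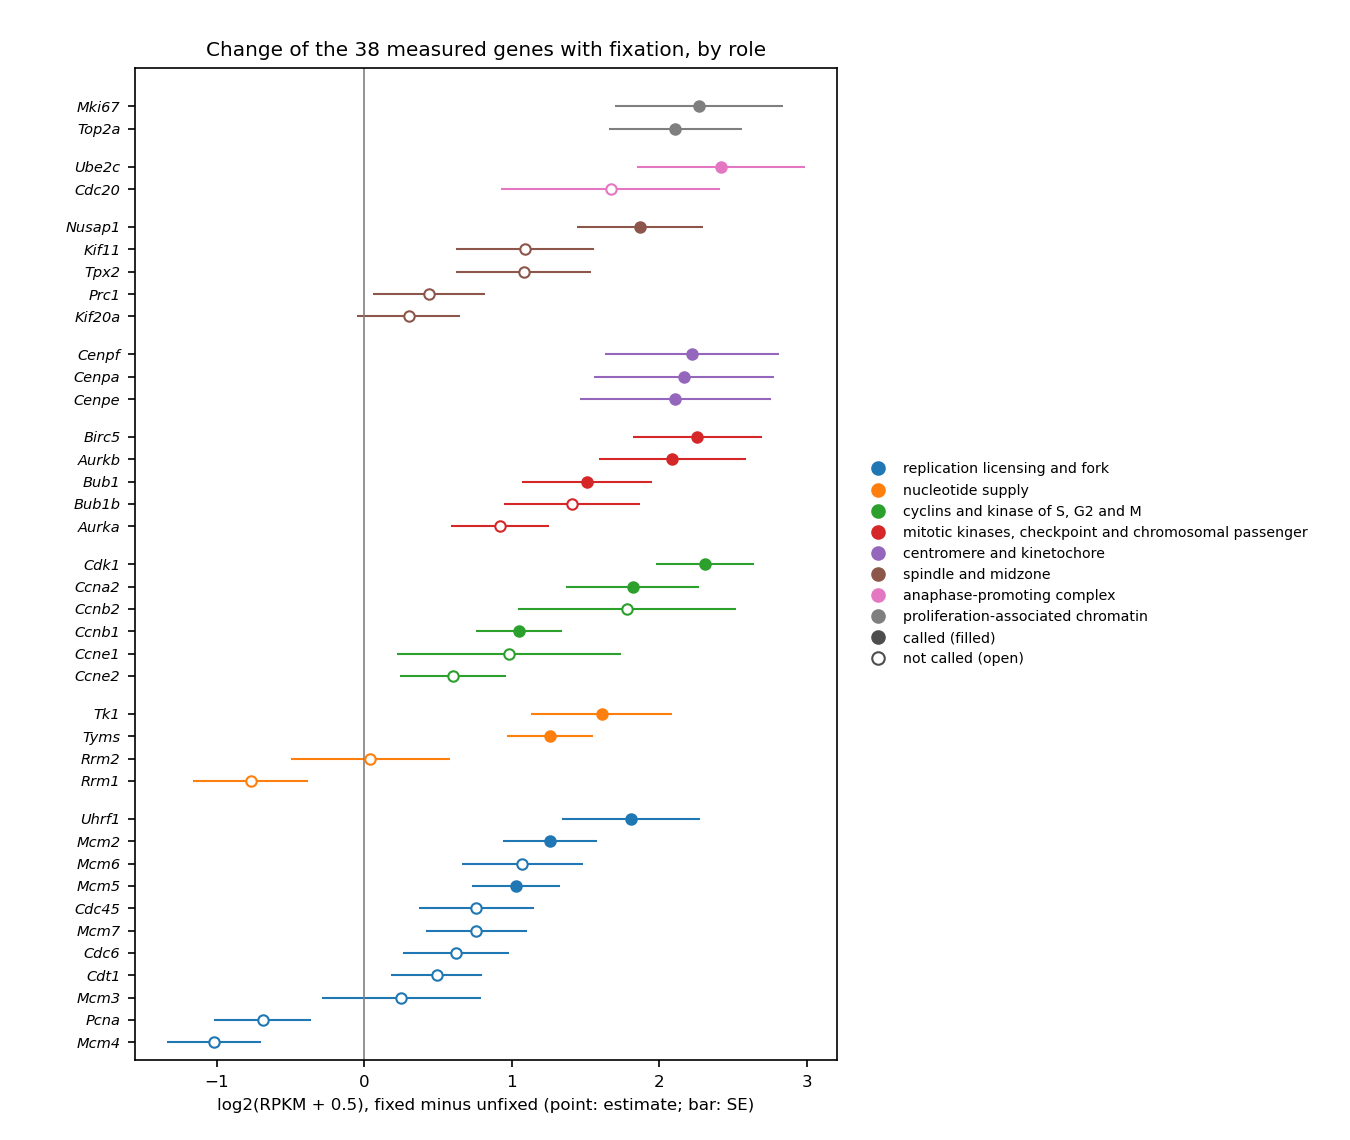
Difference in log2(RPKM + 0.5), fixed minus unfixed, for the 38 measured genes grouped by role (points are estimates, bars are SE, filled points passed the adjusted p threshold of 0.05). Mcm4, Pcna and Rrm1 lie below 0, and the other 35 lie above it.

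The fixed libraries differed from each other more than the unfixed ones did. The median coefficient of variation of a member was 55.6% over the fixed and 24.8% over the unfixed libraries. Fixed replicate 1 was the lowest of the fixed libraries for 28 of 38 members and the highest for 0, and fixed replicate 4 was the highest for 21. Summed over all 38 members, the level was 152, 186 and 176 RPKM in unfixed replicates 1 to 3 and 169, 340, 547 and 361 RPKM in fixed replicates 1, 3, 4 and 5, so fixed replicate 1 was inside the unfixed range. The 15 genes of replication and nucleotide supply summed to 118, 139 and 134 RPKM in unfixed and 94.7, 173, 183 and 223 RPKM in fixed cells, which overlapped. The 21 genes of G2 and mitosis (Ccna2, Ccnb1, Ccnb2, Cdk1 and those of the later roles) summed to 28.7, 43.4 and 37.4 RPKM in unfixed and 71.3, 153, 349 and 128 RPKM in fixed cells, which did not. Together the 38 genes took 0.0563 ± 0.00675% of the reads in unfixed cells (SD, n = 3) and 0.134 ± 0.0523% in fixed cells (n = 4).

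Other genes that moved between fixed and unfixed cells are given here beside these values, and their part in them was not tested. Of the satellite cell markers, Pax7 rose from 29.5 ± 7.96 to 65.4 ± 15.5 RPKM (2.20-fold, adjusted p = 0.0119) and Sdc4 fell from 1565 ± 103 to 179 ± 33.2 RPKM (8.81-fold, adjusted p = 2.25e-05). Itga7 was also called higher, Calcr and Chrdl2 also lower, and Myf5, Cdh15 and Vcam1 were not called. The summed level of all 8 was 2335 to 2833 RPKM in unfixed and 782 to 1150 RPKM in fixed cells, a drop made up mostly of Sdc4. The activated or differentiating myoblast markers Myod1, Myog and Cdkn1c summed to 350 to 473 RPKM in unfixed and 652 to 3055 RPKM in fixed cells. Of these 3, Myog rose from 43.9 ± 19 to 933 ± 518 RPKM (18.2-fold, adjusted p = 0.000887) and Cdkn1c from 105 ± 49.5 to 1058 ± 476 RPKM (9.58-fold, adjusted p = 0.00132), while Myod1 was not called (266 ± 145 against 256 ± 6.44 RPKM, adjusted p = 0.767). Summed endothelial markers (6 genes) were at 194 to 1261 RPKM in unfixed and 38.6 to 236 RPKM in fixed cells, and 6 of 6 fell. Summed muscle fibre markers (6 genes) were at 278 to 3376 and 46.9 to 462 RPKM, with 2 of 6 called lower. Leukocyte markers (9 genes) were at 40.6 to 327 and 61.8 to 128 RPKM, fibro-adipogenic markers (5 genes) at 172 to 546 and 159 to 577 RPKM, and the 4 measured of 8 erythroid markers at 53.8 to 241 and 33.3 to 1682 RPKM. The fibro-adipogenic genes moved in opposite ways. Mean Col1a1 went from 101 to 323 RPKM (25.7 to 514 in fixed libraries). Dcn went from 155 to 56.3, Ly6a from 99.6 to 32.5, Lum from 14.3 to 2.44 and Pdgfra from 1.93 to 1.28 RPKM. No marker was at 0 in all libraries of either group.

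Of 19 measured genes of the E2F family and the DREAM and MuvB complexes, 3 rose and 3 fell with fixation, where 10.9% and 9.87% of all genes did, and their median log2 difference of 0.07 equalled that of all genes. E2f2, an activating E2F, rose 8.15-fold from 2.83 ± 1.56 to 27 ± 13.6 RPKM (adjusted p = 0.00265), and Mybl2, the B-Myb factor of mitotic promoters, rose 4.15-fold (adjusted p = 0.0189). Rbl2, the p130 pocket protein of the DREAM complex in quiescent cells, fell 2.54-fold (adjusted p = 0.0183). Mybl2 lost its call without unfixed replicate 2 or 3 (adjusted p up to 0.0821), and Rbl2 without unfixed replicate 1, 2 or 3 (adjusted p up to 0.0763). E2f1 was 3.99-fold, Foxm1 1.89-fold and Rbl1 1.84-fold higher with no call (adjusted p = 0.0661, 0.131 and 0.133). Of the 14 genes of entry into and exit from the cycle, 7 rose and 3 fell. Ccnd1, cyclin D of early G1 phase, rose 3.25-fold from 13.9 ± 3.04 to 46.7 ± 12.6 RPKM (adjusted p = 0.00206), as did the CDK inhibitor Cdkn1c given above, while Myc fell 18.6-fold (adjusted p = 1.02e-05) and the antiproliferative Btg2 fell 20.2-fold (adjusted p = 1.54e-05). Of 32 further replication and checkpoint genes, 7 rose and 1 fell (median 0.59), with the DNA ligase Lig1 3.09-fold higher (adjusted p = 0.00315) and the histone mRNA binding protein Slbp 2.63-fold lower (adjusted p = 0.0172). Of 37 further mitosis genes, 9 rose and 1 fell (median 1.06), among them Stmn1, which destabilises microtubules, at 6.31-fold (adjusted p = 0.0082), and Cdc25b, a phosphatase that activates Cdk1, at 2.67-fold (adjusted p = 0.0145). Slbp lost its call without unfixed replicate 1 or 3 (adjusted p up to 0.0967) and Cdc25b without unfixed replicate 1 or 2 (adjusted p up to 0.0549). Leaving out single libraries gave 1 to 11 of the further replication genes and 2 to 18 of the further mitosis genes higher, the most without fixed replicate 1, the fewest without unfixed replicate 3 and unfixed replicate 1. In these 3 runs 12.6%, 5.57% and 7.48% of all genes were called higher.

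With the promoters above, 7 of 14 measured genes with TTTGAA and 9 of 18 without it rose with fixation (median log2 differences 1.72 and 1.04). Of all genes tested, 10.9% rose. Of genes with the E2F-type letters 3 of 8 rose, and 13 of 24 without them (medians 0.90 and 1.46). For CCAAT the counts were 12 of 25 and 4 of 7 (medians 1.26 and 1.26). Differences between these counts or medians were not tested, and the calls changed when single libraries were left out, as given above.

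In the labelling experiment the 39 members were at modest levels throughout. Summed over them, whole muscle was at 84.0 to 88.2 RPKM, total RNA of isolated cells at 111 to 113, DMSO cells at 119 to 148, alpha-amanitin cells at 134 to 191, RNA labelled during isolation at 126 to 176, and RNA labelled in vivo at 91.0 to 93.4 (6 h), 63.6 to 65.7 (1 d) and 66.5 to 68.9 RPKM (4 d). None of the 4 groups from whole muscle overlapped in this sum. The fixation experiment was scaled separately, so its levels are not set against these. RNA labelled during isolation had the highest group mean for 18 of the 39 members and alpha-amanitin cells for 10, Cdk1 among the first and Pcna among the second. Whole muscle had the lowest for 12 and the 1 d label for 11. The median coefficient of variation of a member was 50.1% in the RNA labelled during isolation, 25.9% in alpha-amanitin cells and 6.2 to 13.3% in the other 6 groups.

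**Figure D3:**
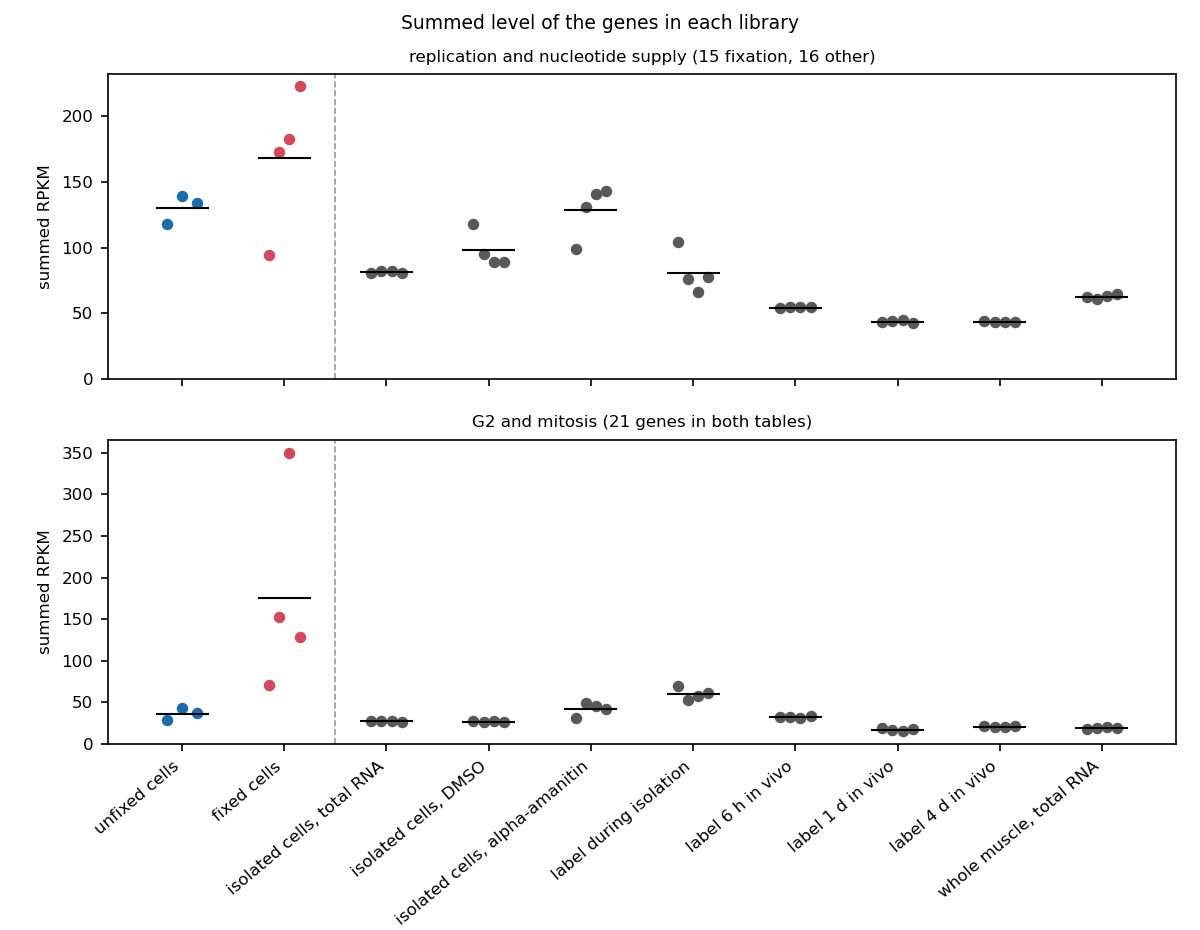
Summed RPKM (vertical axes from 0) of the replication and nucleotide genes (upper panel) and the genes of G2 and mitosis (lower panel) in each library of the 10 groups, with lines for the means; the dashed line parts the separately scaled experiments. In the lower panel the fixed libraries lie at 71.3 to 349 RPKM and the unfixed ones at 28.7 to 43.4 RPKM.

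**Figure D4:**
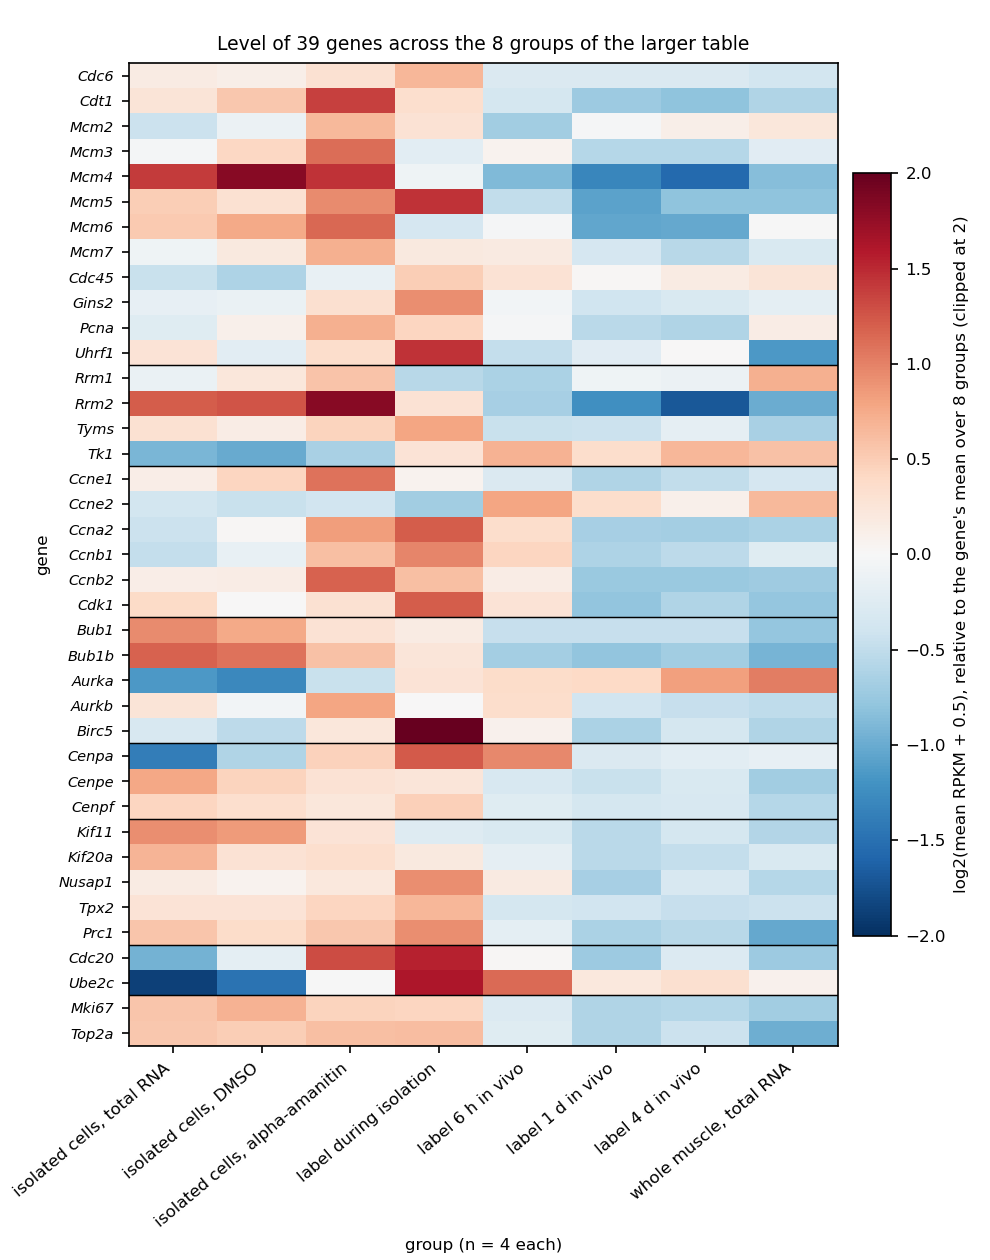
Level of each of 39 genes (rows, ordered by role) in the 8 groups of the labelling experiment (columns, n = 4 each), as log2(mean RPKM + 0.5) relative to the gene's mean over the groups, clipped at 2. The 1 d and 4 d labels were the highest group for 0 genes, while isolation-labelled RNA was the highest for 18.

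Alpha-amanitin during isolation was compared with DMSO to see how transcription during isolation bears on RNA levels. Of 39 members, 17 were higher and 2 lower with alpha-amanitin at a limma adjusted p under 0.05, where 26.5% and 10.5% of all genes were. The groups did not overlap for 10 that were higher and 4 that were lower (15.3% and 9.40% of all genes). The median member was 0.44 higher on the log2 scale, against 0.10 over all genes. The 2 genes of the anaphase-promoting complex, 4 of 6 cyclin and kinase genes, 3 of 5 mitotic kinase, checkpoint and passenger genes and 6 of 12 replication genes were higher, and the chromatin genes Mki67 and Top2a were not called (adjusted p = 0.142 and 0.483). Alpha-amanitin replicate 1 decided much of this: 27 were higher and 6 lower without it, where 45.3% and 32.7% of all genes were, the median member was 0.56 higher against 0.18 over all genes, and 26 and 6 members did not overlap (43.9% and 32.6% of all genes). The counts were 1 and 0 without alpha-amanitin replicate 2 or replicate 3, 2 and 0 without alpha-amanitin replicate 4, 4 and 0 without DMSO replicate 2, and 2 and 0 without DMSO replicate 3 or replicate 4. In those runs 10.2 to 13.1% of all genes were higher and 2.57 to 3.66% lower. With library sizes taken from all reads, which moved the median of all genes from 0.10 to -0.32, 7 were higher and 4 lower, where 18.9% and 27.3% of all genes were. In summed RPKM the members were higher with alpha-amanitin (134 to 191 against 119 to 148), while their share of all reads was lower (0.0618 ± 0.00734% against 0.0692 ± 0.00334%, SD, n = 4 each).

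Cdc20 was at 2.63, 8.11, 7.37 and 6.75 RPKM in alpha-amanitin replicates 1 to 4 and at 2.63, 1.59, 1.58 and 1.72 RPKM in DMSO replicates 1 to 4. Replicate 1 of either group was at the same level, and the other 3 alpha-amanitin libraries were far above the other 3 DMSO libraries (2.67-fold higher, adjusted p = 0.0129). Leaving out each library in turn gave adjusted p of 2.97e-07 to 0.0485. Ube2c was at 0.655, 3, 2.90 and 1.89 RPKM with alpha-amanitin and at 0.521, 0.457, 0.452 and 0.343 RPKM with DMSO, with no overlap (2.54-fold, adjusted p = 0.016); the call was lost without alpha-amanitin replicate 2 or 3 (adjusted p up to 0.0548). Its overlapping neighbour Tnnc2 was at 0.938 to 5.62 RPKM with alpha-amanitin and at a mean of 0.0138 RPKM with DMSO, and the summed muscle fibre markers were 2483 to 12824 against 58.1 to 100 RPKM; their part in the result was not tested. Elovl1, which overlaps Cdc20, was at 34.5 RPKM with alpha-amanitin and 16.7 RPKM with DMSO.

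Ccnb2 was at 2.98, 6.79, 6.76 and 6.18 RPKM with alpha-amanitin and at 2.89, 2.11, 2.73 and 2.48 RPKM with DMSO (1.95-fold higher, adjusted p = 0.0186). Cenpa was at 1.73, 4.52, 5.12 and 3.94 RPKM against 2.10, 1.33, 1.36 and 1.48 RPKM (2-fold, adjusted p = 0.0266). Replicate 1 of alpha-amanitin was near or within the DMSO range for both. Aurka was at 1.01, 2.12, 2.28 and 2.08 RPKM with alpha-amanitin and at 0.959, 0.837, 0.738 and 0.712 RPKM with DMSO (1.76-fold, adjusted p = 0.0191). Aurkb was at 0.944, 2.19, 1.63 and 1.80 RPKM against 0.512, 0.939, 0.590 and 0.694 RPKM (1.78-fold, adjusted p = 0.0189). The groups of either kinase were only just apart, with alpha-amanitin replicate 1 the nearest. Pcna was at 19.7, 26.3, 26.8 and 28.8 RPKM with alpha-amanitin and at 21, 17.6, 13.4 and 14 RPKM with DMSO (1.54-fold, adjusted p = 0.033). Kif11 and Bub1b were the 2 members that were lower, by 1.51-fold and 1.43-fold (adjusted p = 0.0291 and 0.0395), and neither overlapped. Cdk1 was at 1.35, 2.29, 2.02 and 1.90 RPKM against 1.06, 1.70, 1.37 and 1.64 RPKM, which overlapped (adjusted p = 0.191). Without alpha-amanitin replicate 1, Cdc20, Ube2c, Ccnb2 and Cenpa were 3.37-fold, 3.24-fold, 2.33-fold and 2.44-fold higher, and Aurka, Aurkb, Pcna and Cdk1 2.03-fold, 2.02-fold, 1.66-fold and 1.33-fold higher (adjusted p up to 0.0116). Without it Kif11, Bub1b, Mki67 and Mcm4 were 1.67-fold, 1.56-fold, 1.24-fold and 1.27-fold lower (adjusted p = 3.52e-05, 0.000213, 0.0242 and 0.0419). Top2a was not called in that run (adjusted p = 0.555). The calls of Ccnb2, Cenpa, Aurka, Pcna, Kif11 and Bub1b were each lost without alpha-amanitin replicate 2, 3 or 4 and without DMSO replicate 2, 3 or 4 (adjusted p up to 0.0647, 0.0857, 0.0654, 0.105, 0.0924 and 0.13). Bub1b also lost its call without DMSO replicate 1, and Aurkb without replicate 2, 3 or 4 of alpha-amanitin or replicate 3 or 4 of DMSO (adjusted p up to 0.0627).

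Of 20 E2F, DREAM and MuvB regulators 7 were higher and 1 lower with alpha-amanitin, where 26.5% and 10.5% of all genes were, among them E2f1 at 1.81 ± 0.704 against 0.572 ± 0.162 RPKM (2.08-fold, adjusted p = 0.017) and Foxm1 at 1.45-fold (adjusted p = 0.0377). Mybl2, Rbl1 and Rbl2 were not called (adjusted p = 0.206, 0.142 and 0.105). Without alpha-amanitin replicate 1, Rbl1 was 1.31-fold lower (adjusted p = 0.00839), and Mybl2 and Rbl2 were still not called (adjusted p = 0.145 and 0.0596). Of 14 entry and exit genes 7 were higher and 1 lower, with Cdkn1c at 111 ± 37.8 against 21.8 ± 2.63 RPKM (4.73-fold, adjusted p = 0.00207) and Ccnd1 1.57-fold higher (adjusted p = 0.0483). Of 32 further replication genes 7 were higher and 2 lower, and of 38 further mitosis genes 15 were higher and 0 lower, led by the CDK-binding protein Cks1b (2.40-fold, adjusted p = 0.00593). Without alpha-amanitin replicate 1 the 4 lists gave 11 and 3, 10 and 3, 12 and 9, and 18 and 12, where 45.3% and 32.7% of all genes were called. In that run E2f1, Foxm1, Cdkn1c, Ccnd1 and Cks1b were 2.50-fold, 1.60-fold, 5.87-fold, 1.81-fold and 2.76-fold higher. When 1 of replicates 2 to 4 of either treatment was left out, the counts of higher genes were 1 to 3, 2 to 3, 0 to 1 and 5 to 7. The share of all genes called higher was then 10.2 to 13.1%. Foxm1 and Ccnd1 lost their calls without any library other than alpha-amanitin replicate 1 (adjusted p up to 0.114 and 0.136), and E2f1 when DMSO replicate 2 or any of alpha-amanitin replicates 2 to 4 was left out (adjusted p up to 0.059).

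RNA labelled during isolation was compared with total RNA from isolated cells, to see which transcripts were made in those hours. Of 39 members, 13 were higher and 6 lower in the labelled RNA, where 27% and 29.5% of all genes were, and 14 and 6 did not overlap (26.6% and 29.5% of all genes). The median member was 0.29 higher on the log2 scale, against -0.10 over all genes. Ube2c, Cenpa, Cdc20 and Birc5 were higher by the most, while Mcm4, Mcm6, Rrm2, Bub1b, Cenpe and Kif11 were lower. With library sizes from all reads, which moved the median of all genes to -0.69, 7 were higher and 12 lower. Of all genes, 18% were higher and 48.9% lower in that run. The 6 that were lower became 11 without isolation label replicate 1 (34.3% of all genes), and 4 without total RNA replicate 1 or replicate 2 (24.5% and 24.3%).

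Ube2c was at 6.07, 9.7, 8.39 and 6.23 RPKM in the labelled RNA and at 0.155, 0.17, 0.261 and 0.303 RPKM in total RNA (11.1-fold higher, adjusted p = 1.29e-06). No labelled library was near a total one. Its neighbour Tnnc2 was at 3.27 to 14.6 RPKM in labelled RNA and at a mean of 0.158 RPKM in total RNA, and the fibre markers summed to 8141 to 32768 and 68.1 to 246 RPKM; their part was not tested. Cenpa was at 6.46, 6.82, 8.65 and 5.41 RPKM against 0.670, 0.668, 0.616 and 0.877 RPKM (6.02-fold, adjusted p = 5.23e-06). Cdc20 was at 3.83, 9.77, 7.37 and 8.76 RPKM against 0.880, 0.833, 1.11 and 0.859 RPKM (5.33-fold, adjusted p = 7.07e-05). Birc5 was at 15.7, 5.13, 3.87 and 6.77 RPKM against 1.06, 1.00, 1.19 and 0.959 RPKM (4.73-fold, adjusted p = 0.000618). These 3 did not overlap either, and Birc5 was far higher in labelled replicate 1 than in the others. Elovl1, which overlaps Cdc20, was at a mean of 24.5 RPKM in labelled RNA and 13.6 RPKM in total RNA, and its part was not tested.

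Ccna2 was at 4.77, 1.11, 1.72 and 3.96 RPKM in labelled RNA and at 0.688, 0.602, 0.432 and 0.609 RPKM in total RNA (2.80-fold higher, adjusted p = 0.00663). Cdk1 was at 4.38, 4.84, 3.10 and 3.68 RPKM against 2.09, 2.13, 1.88 and 1.97 RPKM (1.77-fold, adjusted p = 0.00397), and Pcna at 27.6, 15.2, 19.2 and 20.9 RPKM against 13.0, 11.7, 13.8 and 12.6 RPKM (1.57-fold, adjusted p = 0.00991). Neither overlapped, and both calls were lost with library sizes from all reads. Mcm4 showed the reverse: it was at 9.22, 6.27, 4.01 and 5 RPKM in labelled RNA and at 17.3, 19, 17.7 and 18.3 RPKM in total RNA (2.92-fold lower, adjusted p = 0.000267). Kif11 and Mcm6 were 2.29-fold and 1.83-fold lower (adjusted p = 0.000205 and 0.00114). Mki67 was at 2.01, 0.154, 0.415 and 0.751 RPKM in labelled RNA and at 0.986, 0.866, 1.03 and 0.927 RPKM in total RNA, labelled libraries lying on both sides (adjusted p = 0.488). Top2a was at 2.03, 1.59, 2.15 and 0.683 RPKM against 1.52, 1.47, 1.44 and 1.51 RPKM, likewise (adjusted p = 0.95).

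**Figure D5:**
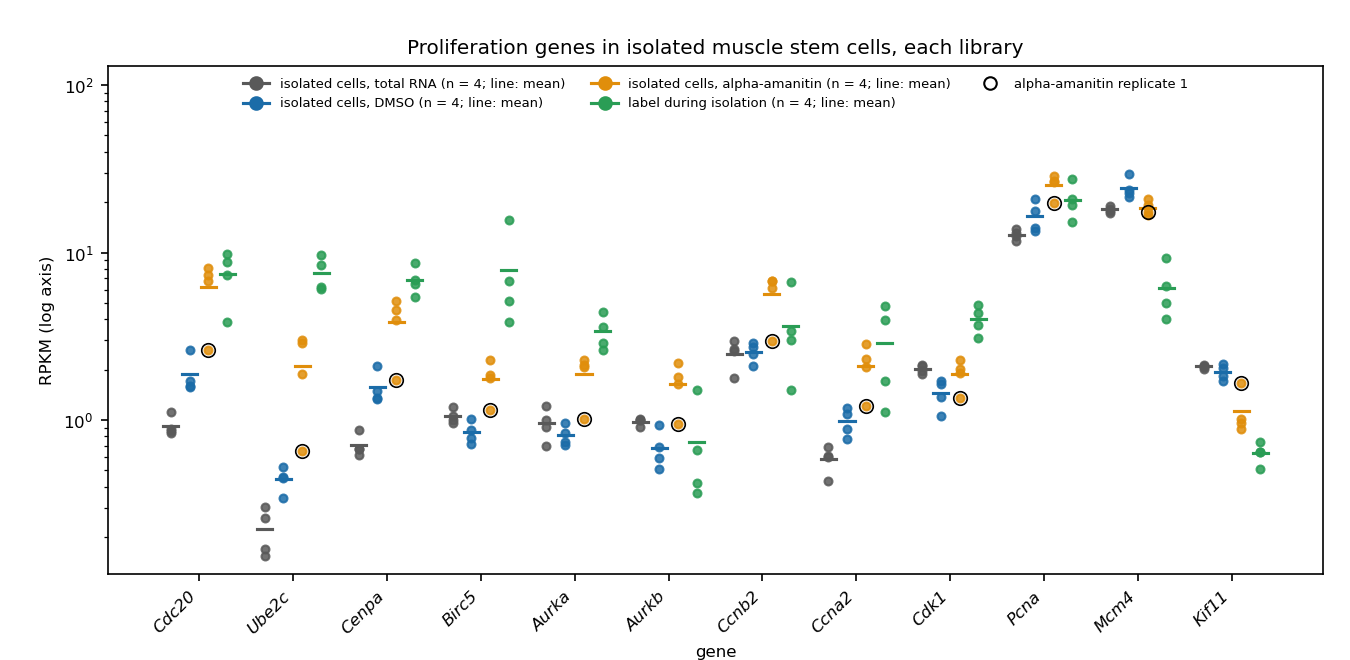
RPKM (vertical log axis) of 12 of the genes in each library of isolated cells: total RNA (grey), DMSO (blue), alpha-amanitin (orange, replicate 1 ringed) and RNA labelled during isolation (green), n = 4 each, with lines for the means. Ube2c lies at 0.155 to 0.303 RPKM in total RNA and at 6.07 to 9.7 RPKM in labelled RNA.

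Among the pathway genes, 5 of 20 E2F, DREAM and MuvB regulators were higher and 5 lower in the labelled RNA, shares at or below the 27% and 29.5% of all genes. E2f1 and Mybl2 were 2.49-fold and 2.01-fold higher (adjusted p = 0.0104 and 0.0201), Rbl2 was 1.55-fold lower (adjusted p = 0.00987), and Foxm1 and Rbl1 were not called (adjusted p = 0.134 and 0.202). Of the 14 entry and exit genes 7 were higher and 3 lower, with Cdkn1c 7.99-fold higher (adjusted p = 2.99e-07) and Cdk4, the cyclin D kinase, 3.86-fold higher (adjusted p = 7.42e-07), while Ccnd1 was not called (adjusted p = 0.581). Of the further mitosis genes 8 of 38 were higher and 10 lower, and of the further replication genes 5 of 32 were higher and 4 lower.

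Total RNA of whole muscle served as the reference for the isolated cells, for the 6 h label and for the 4 d label, so these 3 comparisons share its 4 libraries and their values are set side by side only. Isolated cells had 27 of 39 members higher and 11 lower, where 53.5% and 41.5% of all genes were, and 25 and 10 did not overlap (52.5% and 40.6% of all genes). The 6 h label had 26 higher and 4 lower, where 49.8% and 32.4% of all genes were, and 24 and 4 did not overlap (46.2% and 30.8% of all genes). The 4 d label had 15 higher and 13 lower, where 44.1% and 39.7% of all genes were, and 12 and 9 did not overlap (41.3% and 37.4% of all genes). Median log2 differences of the members were 0.70, 0.30 and -0.03, and those of all genes 0.31, 0.12 and 0.04. Library sizes from all reads moved the medians of all genes to 1.51, 0.23 and 0.14. They gave 35 higher and 3 lower for isolated cells (76.4% and 20.1% of all genes). For the 4 d label they gave 17 higher and 8 lower (53.7% and 30.6%). Median-of-ratios factors gave 21 higher and 7 lower for the 6 h label (41.3% and 38.9% of all genes).

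In isolated cells, all 5 spindle genes, 4 of 5 mitotic kinase, checkpoint and passenger genes and the 2 chromatin genes were higher than in whole muscle, and the 2 genes of the anaphase-promoting complex were lower. Of all genes, 53.5% were higher and 41.5% lower. Mcm4 was at 17.3, 19, 17.7 and 18.3 RPKM in isolated cells and at 3.31, 3.40, 3.57 and 3.34 RPKM in muscle (4.75-fold, adjusted p = 1.13e-13). Rrm2 was at 13.8, 13.5, 12.6 and 12.2 RPKM against 2.40, 2.27, 2.38 and 2.65 RPKM (4.62-fold, adjusted p = 1.32e-12). No isolated library came near a muscle library for either gene. Bub1b was at 3.19, 3.23, 2.91 and 2.97 RPKM against 0.307, 0.297, 0.331 and 0.361 RPKM (4.33-fold, adjusted p = 1.82e-12), and Bub1 at 1.63, 1.43, 1.49 and 1.57 RPKM against 0.138, 0.12, 0.124 and 0.0817 RPKM (3.29-fold, adjusted p = 7.45e-12). Both checkpoint genes were low in muscle, with no library above 0.361 RPKM. Mki67 was at 0.986, 0.866, 1.03 and 0.927 RPKM against 0.138, 0.0906, 0.125 and 0.1 RPKM (2.37-fold), and Top2a and Cdk1 were 2.84-fold and 2.24-fold higher (adjusted p = 1.24e-10, 1.02e-11 and 5.51e-09). All of these were higher in every isolated library.

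Lower in isolated cells were Aurka, at 0.994, 0.908, 0.702 and 1.21 RPKM against 5.51, 6.45, 6.34 and 5.88 RPKM in muscle (4.53-fold, adjusted p = 2.76e-10), and Ube2c, at 0.155, 0.17, 0.261 and 0.303 RPKM against 2.03, 2.23, 2.50 and 2.41 RPKM (3.87-fold, adjusted p = 1.25e-10). Tnnc2 was at a mean of 57.5 RPKM in muscle and 0.158 RPKM in isolated cells. Pcna was at 13.0, 11.7, 13.8 and 12.6 RPKM against 16.8, 16.2, 17.5 and 17.6 RPKM (1.32-fold lower, adjusted p = 9.96e-06), and its difference turned to 1.16 higher on the log2 scale with library sizes from all reads. Of the E2F, DREAM and MuvB regulators 9 of 20 were higher and 9 lower, where 53.5% and 41.5% of all genes were, Mybl2 by 2.44-fold and Foxm1 by 2.16-fold upward (adjusted p = 7.72e-11 and 1.18e-09) and Rbl2 by 1.59-fold downward (adjusted p = 1.74e-08). Rbl1 was 1.41-fold higher (adjusted p = 2.73e-06) and E2f1 was not called (adjusted p = 0.27). Of 14 entry and exit genes 9 were higher and 4 lower, led by Myc (26.6-fold higher, adjusted p = 4.3e-16), and Ccnd1 was 3.77-fold higher (adjusted p = 6.91e-10). Of the further mitosis genes 29 of 38 were higher and 7 lower, and of the further replication genes 18 of 32 were higher and 13 lower.

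With the 6 h label, 18 of 21 genes of G2 and mitosis and 8 of 16 genes of replication and nucleotide supply were above the input muscle. Of the 26 that were higher, 3 exceeded 2-fold on the log2(RPKM + 0.5) scale and 16 by the ratio of mean RPKM. Cenpa was at 5.70, 5.62, 5.23 and 6.05 RPKM in labelled RNA and at 2.43, 2.25, 2.25 and 2.32 RPKM in muscle (2.18-fold, adjusted p = 2.13e-09). Cdk1 was at 1.75, 1.88, 1.81 and 1.92 RPKM against 0.610, 0.501, 0.707 and 0.697 RPKM (2.08-fold, adjusted p = 3.5e-08). Ube2c was at 5.27, 5.28, 5.35 and 5.29 RPKM against 2.03, 2.23, 2.50 and 2.41 RPKM (2.08-fold, adjusted p = 7.9e-09), while its neighbour Tnnc2 was at 18.7 RPKM in labelled RNA and 57.5 RPKM in muscle. Each of the 3 was higher in every labelled library. Ccna2 was at 1.46, 1.26, 1.41 and 1.29 RPKM against 0.502, 0.511, 0.454 and 0.296 RPKM (1.98-fold, adjusted p = 3.08e-07). Mki67 and Top2a were 1.34-fold and 1.66-fold higher (adjusted p = 1.73e-05 and 1.38e-07), at levels of 0.320 ± 0.0504 and 0.660 ± 0.0677 RPKM in labelled RNA (SD, n = 4). Rrm1 was at 6.15, 5.90, 5.51 and 5.79 RPKM against 15.8, 15.4, 15.4 and 15.7 RPKM (2.54-fold lower, adjusted p = 5.4e-11), and Mcm2 at 1.45, 1.77, 1.86 and 1.82 RPKM against 3.98, 3.57, 3.66 and 3.70 RPKM (1.91-fold lower, adjusted p = 1.24e-07). Aurka and Pcna were the other 2 that were lower, by 1.59-fold and 1.12-fold. Satellite cell markers summed to 140 to 160 RPKM in this labelled RNA and 58.6 to 61.5 RPKM in muscle, and fibre markers to 63705 to 69289 and 116083 to 122143 RPKM. Of all genes 49.8% were higher and 32.4% lower. Of the further mitosis genes 31 of 38 were higher and 3 lower, of the further replication genes 15 of 32 higher and 10 lower, of the regulators 13 of 20 higher and 4 lower, and of the entry and exit genes 7 of 14 higher and 6 lower. E2f1, Mybl2, Foxm1 and Rbl1 were 1.53-fold, 1.41-fold, 1.43-fold and 1.25-fold higher, Rbl2 was 1.44-fold lower, and Ccnd1 was not called (adjusted p = 0.55).

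With the 4 d label, 8 of 16 genes of replication and nucleotide supply were lower than in muscle and 2 were higher. Of the 21 genes of G2 and mitosis, 13 were higher and 3 lower. Uhrf1 was at 1.49, 1.71, 1.34 and 1.30 RPKM in labelled RNA and at 0.379, 0.314, 0.407 and 0.411 RPKM in muscle (2.23-fold higher, adjusted p = 2.76e-08). It was the 1 member higher by more than 2-fold on the log2(RPKM + 0.5) scale, while by the ratio of mean RPKM 6 were: Uhrf1, Bub1, Cenpe, Cenpf, Prc1 and Top2a. Mcm6 was at 2.07, 1.73, 1.70 and 1.85 RPKM against 4.21, 4.12, 4.30 and 4.26 RPKM (2.02-fold lower, adjusted p = 1.02e-08), and Mcm4 at 1.97, 2.04, 1.93 and 1.66 RPKM against 3.31, 3.40, 3.57 and 3.34 RPKM (1.63-fold lower, adjusted p = 3.31e-07). Pcna was at 9.96, 10.2, 9.99 and 9.58 RPKM against 16.8, 16.2, 17.5 and 17.6 RPKM (1.68-fold lower, adjusted p = 7.34e-09). In all of these the groups did not overlap. Rrm1 was at 8.47, 8.69, 8.90 and 8.30 RPKM against 15.8, 15.4, 15.4 and 15.7 RPKM (1.77-fold lower, adjusted p = 1.37e-09), and Rrm2 at 1.46, 1.13, 1.30 and 1.31 RPKM against 2.40, 2.27, 2.38 and 2.65 RPKM (1.63-fold lower, adjusted p = 9.91e-07). Top2a, Cdk1 and Mki67 were 1.46-fold, 1.14-fold and 1.09-fold higher (adjusted p = 3.66e-07, 0.0168 and 0.0294). Cdk1 lost its call without whole muscle replicate 2 (adjusted p = 0.0511), and Mki67 without 4 d label replicate 1 or 4 or whole muscle replicate 2 or 4 (adjusted p up to 0.0866). Satellite cell markers summed to 62.6 to 64.8 RPKM after 4 d and fibre markers to 122450 to 130264 RPKM. Of all genes 44.1% were higher and 39.7% lower. Of the further mitosis genes 15 of 38 were higher and 11 lower, of the further replication genes 9 of 32 higher and 13 lower, of the regulators 8 of 20 higher and 8 lower, and of the entry and exit genes 2 of 14 higher and 7 lower. The 1 d label was measured without a comparison of its own. Pcna was at 10.2 to 10.7 RPKM, Ube2c at 2.22 to 2.83 RPKM, Cdk1 at 0.548 to 0.675 RPKM and Mki67 at 0.131 to 0.164 RPKM in it.

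RNA labelled for 6 h in the muscle was then compared with RNA labelled for about 6 h during isolation. Of 39 members, 1 was higher and 14 lower in vivo, where 29.5% and 25.8% of all genes were, and 1 and 13 did not overlap (30.2% and 27.2% of all genes). The median member was 0.50 lower on the log2 scale, against 0.00 over all genes. Mcm5 was at 1.69, 1.29, 1.22 and 1.33 RPKM in vivo and at 6.31, 10.1, 4.29 and 6.01 RPKM with the isolation label (3.68-fold lower, adjusted p = 0.000228). Birc5 was at 1.63, 1.40, 1.44 and 1.77 RPKM against 15.7, 5.13, 3.87 and 6.77 RPKM (3.57-fold lower, adjusted p = 0.00248). Uhrf1 was at 0.948, 0.808, 0.957 and 0.869 RPKM against 3.73, 3.01, 3.20 and 9.42 RPKM (3.46-fold lower, adjusted p = 0.00146). In all 3 the isolation label was higher in every library and spread widely. Cdc20 was at 2.29, 2.27, 2.32 and 2.22 RPKM against 3.83, 9.77, 7.37 and 8.76 RPKM (2.72-fold lower, adjusted p = 0.00151), and Prc1 at 0.777, 0.753, 0.776 and 0.873 RPKM against 3.81, 1.56, 2.60 and 1.45 RPKM (2.09-fold lower, adjusted p = 0.00792). Elovl1, which overlaps Cdc20, was at a mean of 7.7 RPKM in vivo and 24.5 RPKM with the isolation label. Cdk1 and Top2a were 1.90-fold and 1.74-fold lower (adjusted p = 0.00173 and 0.0281), and Mki67 and Pcna were not called (adjusted p = 0.248 and 0.0667). Top2a lost its call without isolation label replicate 1 or 3 and without 6 h label replicate 1, 2, 3 or 4 (adjusted p up to 0.0758). Ccne2, a cyclin of the start of S phase, was the 1 member higher in vivo, at 4.60, 3.82, 4.49 and 4.52 RPKM against 0.886, 1.67, 1.46 and 1.01 RPKM (2.81-fold, adjusted p = 0.000226). The 14 lower calls became 7 without 6 h label replicate 1, replicate 3 or replicate 4 and 8 without replicate 2, where 20.2 to 20.7% of all genes were lower. The 1 higher call became 3 without isolation label replicate 1 and 2 without isolation label replicate 2 (30.3% and 30.8% of all genes). With library sizes from all reads, which moved the median of all genes to -0.38, 1 was higher and 22 were lower, where 15.0% and 36.4% of all genes were. Satellite cell markers summed to 140 to 160 RPKM in vivo and 525 to 913 RPKM with the isolation label, and fibre markers to 63705 to 69289 and 8141 to 32768 RPKM; their part in these differences was not tested. Of the pathway genes, Mybl2 was 3.46-fold and Ccnd1 3.97-fold lower in vivo (adjusted p = 0.00116 and 0.000149), Rbl2 was 1.71-fold higher (adjusted p = 0.00385), and E2f1, Foxm1 and Rbl1 were not called. Beside the 29.5% and 25.8% of all genes, of the further mitosis genes 3 of 38 were higher and 15 lower, of the further replication genes 6 of 32 higher and 7 lower, of the regulators 9 of 20 higher and 2 lower, and of the entry and exit genes 1 of 14 higher and 8 lower.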

How the data were processed

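RNA of 39 libraries was read from the 2 deposited tables of RPKM values (reads scaled by gene length and library size), which the authors made. The tools edgeR, featureCounts of Subread, STAR and Trim Galore and the mouse build mm10 are given per the submitters' processing notes. The sources used here give no versions and no strand setting. Each table was scaled on its own, so levels were not compared between them. In the larger table the header stands 1 cell left of the values, and columns were read with that shift undone. Multiplying by length and scaling gave whole reads, within 0.1, for 100% of the low values checked. No symbol was given for 1488 and 555 genes, of which 1350 and 468 were named by their gene identifier.

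Differences were tested with limma 3.58.1 in R 4.3.3 (lmFit, then eBayes with trend) on log2(RPKM + 0.5), over the 2 groups of each of 7 comparisons, with p-values adjusted by Benjamini and Hochberg over all genes of the table. A gene was called at an adjusted p under 0.05. Folds come from that log2(RPKM + 0.5) scale and so understate the change of genes at low level. No filter on low values was used, since it could keep a low member only through the group where it is high. Genes at 0 numbered 0 to 704 per library. Simulated reads were refitted for fixed against unfixed cells and for alpha-amanitin against DMSO only. Their spread was set alike for all genes and not taken from these libraries. They therefore cannot show how the fits do where libraries spread widely. Alternatives were a pseudocount of 1, a filter of 1 RPKM in 3 libraries, median-of-ratios factors, library sizes from all reads, limma-voom on the recovered reads, a replicate block, and leaving out each library. Figures and sums used Python 3.11.15 with numpy 2.4.6, pandas 2.3.3 and matplotlib 3.10.9.

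The 40 genes, the pathway lists and the marker lists were chosen with earlier results of these data known. Any member could be named. Values per library were given for Mki67, Top2a, Cdk1, Pcna, the 10 members at the highest mean level over the fixation libraries, and up to 6 called members with the largest fold at 1 RPKM or more in each comparison. Of each pathway list, up to 4 genes with the lowest adjusted p were eligible, with Foxm1, Mybl2, E2f1, Rbl1, Rbl2 and Ccnd1. The labels do not say whether replicates came from separate animals, so each p rests only on the spread among these samples, and that spread may be technical. Of the fixed group, replicate numbers 1, 3, 4 and 5 were analysed.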

Additional observations from a re-analysis of the deposited data

Results flagged for a closer look

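In groups of 4, a library was set apart where its gap to the nearest other library, over the range of the group, passed Dixon's critical value. Of 96 groups tested 8 held such a library, and chance alone gives about 1 in 20.

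Cdc20 was at 44.6 RPKM in fixed replicate 4 and at 4.15 to 7.26 RPKM in the other 3 fixed libraries. Uhrf1 was at 9.42 RPKM in isolation label replicate 4 and at 3.01 to 3.73 RPKM in the others of that group. Alpha-amanitin replicate 1 was the low library of its group for Aurka (1.01 RPKM against 2.08 to 2.28), for Ccnb2 (2.98 RPKM against 6.18 to 6.79) and for the summed level of the 39 members (134 RPKM against 184 to 191). DMSO replicate 1 was the high library of its group for Cdc20 (2.63 RPKM against 1.58 to 1.72). Ccne2 was at 3.82 RPKM in 6 h label replicate 2 and at 4.49 to 4.60 RPKM in the others. The summed level was 68.9 RPKM in 4 d label replicate 1 and 66.5 to 66.9 RPKM in the others.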

How the results depend on the processing

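For fixed against unfixed cells the count of lower members was 1 instead of 0, by Mcm4, with a pseudocount of 1, the filter, median-of-ratios factors, limma-voom and the replicate block. The count of higher members was 7 with the replicate block (5.27% of all genes). Leaving out single libraries gave 4 to 21 higher and 0 to 1 lower, where 5.57 to 12.6% and 5.40 to 10.9% of all genes were. For alpha-amanitin the counts were 7 and 4 with library sizes from all reads, 0 and 0 with the replicate block, where Cdc20 too lost its call, and 1 to 27 and 0 to 6 leaving out single libraries. The shares of all genes were 18.9% and 27.3%, 5.33% and 0.677%, and 10.2 to 45.3% and 2.57 to 32.7%. For the isolation label the counts were 7 and 12 with all reads, where 18% and 48.9% of all genes were called. Leaving out single libraries gave 12 to 14 and 4 to 11. For isolated cells against muscle 3 were lower with all reads (20.1% of all genes), and leaving out single libraries gave 26 to 27 and 11 (53.0 to 53.4% and 40.9 to 41.4%). For the 6 h label 15 were higher with the filter, where fewer genes were tested (45.6% of them higher), and 7 lower with median-of-ratios factors (38.9% of all genes). Leaving out single libraries gave 25 to 28 and 4 (47.3 to 49.8% and 31.4 to 32.3%). For the 4 d label 4 were higher with the filter (28.1% of genes tested) and 8 lower with all reads (30.6% of all genes). Leaving out single libraries gave 12 to 15 and 10 to 14 (42.7 to 43.9% and 38.3 to 39.6%). For the 6 h label against the isolation label 22 were lower with all reads (36.4% of all genes), and leaving out single libraries gave 1 to 3 and 7 to 16 (24.2 to 31.1% and 20.2 to 27.5%). The cause of these moves was not tested.

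Some log2 differences changed sign. Rrm2 with fixation was -0.04 with median-of-ratios factors, -0.38 with the replicate block and -0.51 without fixed replicate 4. With all reads, Cdk1 was -0.11 and Top2a -0.29 for alpha-amanitin, Pcna -0.03 and Top2a -0.55 for the isolation label, Pcna 1.16 for isolated cells against muscle and Pcna 0.18 for the 6 h label against muscle. Top2a was -0.01 for alpha-amanitin with median-of-ratios factors.

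What libraries with the same number in 2 groups share beyond that number is not known here, and the main fits did not use it. Their deviations correlated at -0.53 to -0.06 for alpha-amanitin and DMSO and at -0.04 to 0.25 in the other comparisons. In each comparison with whole muscle, 6 of 8 libraries matched their own number best. The count was 0 of 8 for alpha-amanitin and DMSO. It was 3 of 8 for the isolation label against total RNA and 2 of 8 for the 6 h label against the isolation label. The replicate block gave 13 higher and 6 lower for the isolation label, 27 and 11 for isolated cells, 27 and 4 for the 6 h label, 15 and 13 for the 4 d label, and 1 and 12 for the 6 h label against the isolation label. The shares of all genes were 26.5% and 26.9%, 53.5% and 41.5%, 49.4% and 32.5%, 44.4% and 40.2%, and 27.2% and 24.9%. RNA labelled during isolation was the shallowest, at 2321903 to 7742378 reads, and its members varied most of the 8 groups of the labelling experiment.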
